A study of Homo sapiens with 12 samples.

Results

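The 32 genes described here encode the enzymes that build cholesterol and fatty acids, together with the proteins that control them, out of 19460 genes in the RNA table. They were chosen by gene name, at a time when earlier results of these data were known. There were 18 sterol enzymes, 8 fatty acid enzymes and 6 regulators and transport genes, and all 32 were found in the table. The cells were T-47D, a long-established human breast cancer line that carries the oestrogen receptor, labelled as wild type. They received either the solvent DMSO or 1 µM palbociclib, an inhibitor of the cell cycle kinases CDK4 and CDK6, and were collected after 24 h. Each treatment had 3 biological replicates in poly(A) RNA sequencing and 3 in ATAC-seq, which measures how open chromatin is to the transposase Tn5. Every library came from the same line, so nothing here bears on other lines or on tumours.

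Cholesterol and fatty acids are both made in the cytosol and endoplasmic reticulum from acetyl-CoA. Their enzymes are transcribed largely under the SREBP factors (genes SREBF1 and SREBF2). When sterols are low, SCAP escorts the SREBP precursors from the endoplasmic reticulum to the Golgi, where they are cut and released to the nucleus. When sterols are plentiful, INSIG1 and INSIG2 hold SCAP back, and INSIG1 is itself an SREBP target. Breast cancer cells commonly make much of their own lipid, and growing cells need it for membranes.

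Under palbociclib the RNA of most of the enzymes was lower, and that of the regulators moved both ways. Of the 32 genes, 19 fell and 4 rose at a Benjamini-Hochberg adjusted p under 0.05 (limma), and 9 did not pass. Over the 15869 genes tested, 22.9% fell and 20.9% rose. The median log2 change was -0.20 over the 32 genes and 0.00 over all genes tested. A total of 12 of 18 sterol enzymes and 5 of 8 fatty acid enzymes fell, with median log2 changes of -0.23 and -0.25. Among the 6 regulators and transport genes, SREBF1, SREBF2 and SCAP rose, and INSIG1 and STARD4 fell. Where the libraries were quantile normalized, 16 members fell and 5 rose, and where each library was centred on its median gene, 14 fell and 6 rose. Over all genes these scalings moved the share of rises among the changed genes from 47.7% to 61.6% and 68.9%, and the median log2 change from 0.00 to 0.06 and 0.10.

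RNA levels are FPKM, fragments scaled to transcript length and library size, as the authors deposited them. Changes are palbociclib over DMSO on the log2(FPKM + 1) scale, which understates changes of weakly expressed genes. Values after ± are SDs over 3 libraries. The groups of 3 libraries did not overlap for 24 of the 32 genes, against 54.7% of all genes tested. The total count of each RNA library is not given in the sources used here. The authors' deposited table gives mean normalized counts from 781 for HSD17B7 to 91069 for SCD, so no member was thinly counted. The values come from bulk RNA, in which fewer cells of a type and less RNA per cell cannot be told apart.

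**Figure D1:**
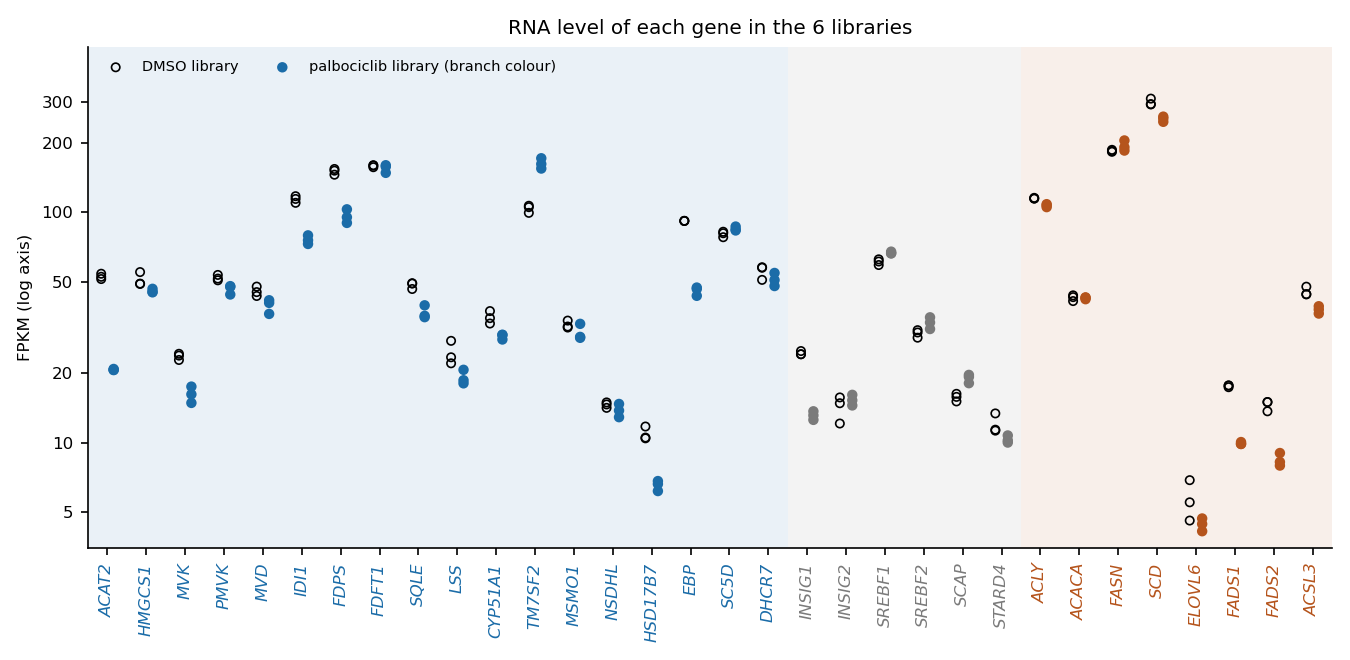
RNA level (FPKM, log axis) of each of the 32 genes in the 6 libraries, in pathway order, with sterol enzymes on blue, regulators and transport on grey and fatty acid enzymes on orange. Open circles are DMSO and filled circles palbociclib libraries; ACAT2, EBP, INSIG1, FADS1 and FADS2 separate widely downward and TM7SF2 upward.

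All 8 luminal epithelial markers were expressed, as the cell type label states, with KRT8, KRT18 and KRT19 the highest. Their summed level was 5509.5 to 6038 FPKM in DMSO and 7386 to 8176 FPKM under palbociclib, and 7 of the 8 rose (limma). The part of this rise in the results on lipid genes was not tested. Of 10 markers of leukocytes, endothelium, fibroblasts, smooth muscle and basal epithelium, 4 were in the table, and their sum was 32.6 to 33.6 FPKM in DMSO and 33.6 to 35.3 FPKM under palbociclib. PTPRC, PECAM1, VWF, PDGFRB, KRT5 and KRT14 have no values here, CD68 and COL3A1 were near 0, and COL1A1 and ACTA2 made up the rest. In ATAC-seq the reads in peaks summed to between 12830062 and 18250496 per library.

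The promoters of 5 of these genes are shown. SREBF1, SREBF2 and INSIG1 were set by name. EBP and SCAP had the largest fall and rise in RNA among members with both a promoter sequence and a promoter peak in ATAC-seq. ACAT2 fell more than EBP but had no promoter sequence, and TM7SF2 rose more than SCAP but had no promoter peak. RNA was lower for EBP and INSIG1 and higher for SREBF1, SREBF2 and SCAP. Each promoter shown runs from 250 bases before the RefSeq transcript start to 50 bases from it, on GRCh38.p14, in the direction of transcription. EBP is at chrX:48521558-48521857 on the plus strand, SREBF2 at chr22:41832855-41833154 on the plus strand and SREBF1 at chr17:17836937-17837236 on the minus strand. SCAP is at chr3:47475892-47476191 on the minus strand and INSIG1 at chr7:155297628-155297927 on the plus strand. Capitals mark matches, on either strand, to the motifs searched: TCACNCCAC, the core of a sterol response element that SREBPs bind; CACGTG, the E-box; CCAAT, bound by NF-Y; GGGCGG, bound by SP1; and TTTCCCGC or TTTGGCGC, bound by E2F factors.
EBP: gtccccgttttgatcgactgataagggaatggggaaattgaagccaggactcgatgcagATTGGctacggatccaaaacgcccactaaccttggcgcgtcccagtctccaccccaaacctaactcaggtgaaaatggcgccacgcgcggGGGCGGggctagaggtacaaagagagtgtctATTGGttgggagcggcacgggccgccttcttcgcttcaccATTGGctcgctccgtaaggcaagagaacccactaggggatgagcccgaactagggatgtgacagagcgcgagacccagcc
SREBF2: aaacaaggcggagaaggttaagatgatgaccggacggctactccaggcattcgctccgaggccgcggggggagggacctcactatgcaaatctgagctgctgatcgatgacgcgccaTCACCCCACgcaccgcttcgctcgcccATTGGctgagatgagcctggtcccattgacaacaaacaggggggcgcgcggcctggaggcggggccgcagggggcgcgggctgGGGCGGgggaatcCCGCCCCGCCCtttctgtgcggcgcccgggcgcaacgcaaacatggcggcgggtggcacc
SREBF1: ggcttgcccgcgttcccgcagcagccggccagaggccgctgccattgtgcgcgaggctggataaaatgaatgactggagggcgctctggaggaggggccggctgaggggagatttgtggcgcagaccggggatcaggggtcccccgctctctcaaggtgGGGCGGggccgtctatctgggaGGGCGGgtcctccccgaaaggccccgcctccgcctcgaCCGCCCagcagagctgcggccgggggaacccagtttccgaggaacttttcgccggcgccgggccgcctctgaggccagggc
SCAP: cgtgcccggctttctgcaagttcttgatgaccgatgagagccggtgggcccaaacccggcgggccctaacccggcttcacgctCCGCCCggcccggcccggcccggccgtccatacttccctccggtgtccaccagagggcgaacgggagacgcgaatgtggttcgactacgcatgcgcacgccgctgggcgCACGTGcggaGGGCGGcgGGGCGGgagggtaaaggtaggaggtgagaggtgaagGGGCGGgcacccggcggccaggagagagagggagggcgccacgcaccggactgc
INSIG1: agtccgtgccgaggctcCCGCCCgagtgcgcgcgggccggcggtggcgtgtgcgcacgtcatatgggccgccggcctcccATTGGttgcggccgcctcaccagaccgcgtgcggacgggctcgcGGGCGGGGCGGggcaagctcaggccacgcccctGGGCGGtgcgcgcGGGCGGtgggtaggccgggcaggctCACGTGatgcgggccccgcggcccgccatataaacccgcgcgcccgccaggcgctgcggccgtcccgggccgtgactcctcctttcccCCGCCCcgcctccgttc

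Counting the start base as 0, SREBF2 holds TCACCCCAC from -133 to -125, followed by an inverted CCAAT box from -106 to -102 and 3 SP1 boxes, 2 of which share a base. EBP holds 3 inverted CCAAT boxes and 1 SP1 box. INSIG1 holds an E-box from -55 to -50, 1 CCAAT box and 6 SP1 boxes, of which 2 share a base. SCAP holds an E-box from -58 to -53 and 4 SP1 boxes, and SREBF1 holds 3 SP1 boxes.

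Promoter entries existed for 28 of the 32 genes and for 27305 genes in all. Shares here are of genes with a match in at least 1 of their promoter entries, so genes with more starts had more chances. The sterol response element core occurred in 1 of the 28 (SREBF2, 3.57%) and in 1.39% of all 27305 genes. The E-box occurred in 4, LSS, SC5D, INSIG1 and SCAP (14.3%), and in 8.77% of all. CCAAT occurred in 21 of 28 (75%), among them 13 of 15 sterol enzymes and 5 of 7 fatty acid enzymes, against 39.7% of all. GGGCGG occurred in 27 of 28 (96.4%) against 48.3% of all. The E2F motifs occurred in MVK, INSIG2 and ACACA (10.7%) and in 2.75% of all. The list of all promoters includes non-coding genes, and these matches describe letters in a window of 300 bases, not binding.

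The mevalonate arm turns acetyl-CoA into farnesyl diphosphate, and all 7 of its members here fell, with a median log2 change of -0.52. With median centring the 3 smallest of these falls, those of HMGCS1, PMVK and MVD, did not pass. ACAT2, the thiolase that joins acetyl-CoA units in the cytosol, fell the most of the 32. Its level was 52.5, 51.3 and 54.1 FPKM in the DMSO libraries and 20.7, 20.9 and 20.7 FPKM under palbociclib. This is a fall of 60.5%, with a log2 change of -1.30 ± 0.03 (SE) and an adjusted p of 1.78e-08 (limma), and the groups lay far apart. ACAT2 lies on chromosome 6 (GRCh38 159762045 to 159779112) and overlaps other annotated genes, among them TCP1, a chaperonin subunit gene whose RNA fell from 169 ± 1.62 to 117 ± 1.26 FPKM. Whether reads of the overlap were kept apart is not given in the sources used here.

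FDPS makes farnesyl diphosphate, the branch point to sterols and to prenylated proteins. It read 154, 151 and 145 FPKM in DMSO and 103, 95.1 and 89.9 FPKM under palbociclib, a log2 change of -0.64 ± 0.05 (adjusted p = 1.87e-05, limma). IDI1, the isomerase before it, read 114, 109.8 and 117 FPKM in DMSO against 79.4, 72.8 and 75.6 FPKM (log2 change -0.58 ± 0.04, adjusted p = 1.04e-05, limma). No palbociclib library of either gene reached the DMSO range. FDPS has 10 named pseudogenes and IDI1 has 3, and how reads shared with them were counted is not given in the sources used here. MVK, which phosphorylates mevalonate, read 22.9, 23.9 and 24.3 FPKM in DMSO and 16.2, 17.5 and 14.9 FPKM under palbociclib (log2 change -0.52 ± 0.06, adjusted p = 0.000186, limma). MVK shares its start region with MMAB, a cobalamin enzyme gene whose RNA fell as well, from 53.0 ± 2.77 to 40.8 ± 2.46 FPKM.

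The other 3 mevalonate genes fell by 10.6% to 13.1%, and these calls depended on the scaling. With median centring the log2 changes of HMGCS1, PMVK and MVD were -0.06, -0.06 and -0.10 (adjusted p = 0.349, 0.278 and 0.178, limma). With quantile normalization HMGCS1 and MVD did not pass either (adjusted p = 0.0953 and 0.0702, limma). PMVK, the next kinase, read 51.6, 50.7 and 53.5 FPKM in DMSO and 47.8, 47.4 and 44.0 FPKM under palbociclib. Its log2 change was -0.16 ± 0.04 (adjusted p = 0.0155, limma), and without DMSO replicate 3 the adjusted p was 0.0503. MVD, the decarboxylase that yields isopentenyl diphosphate, read 45.0, 47.6 and 43.3 FPKM against 41.5, 40.5 and 36.2 FPKM. Its log2 change of -0.20 ± 0.06 had an adjusted p of 0.0224 (limma), which became 0.0514 without DMSO replicate 1 and 0.0782 without DMSO replicate 2. HMGCS1, the synthase of HMG-CoA, read 49.0, 48.9 and 55.0 FPKM against 45.2, 44.9 and 46.5 FPKM. Its log2 change of -0.16 ± 0.05 had an adjusted p of 0.0321 (limma). That p was 0.0592 without DMSO replicate 3, the library with the highest level, and 0.0844 and 0.0907 without palbociclib replicates 1 and 2. Without the intensity trend it was 0.0675.

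The next enzymes close the sterol rings. SQLE, the epoxidase that is often named as a rate-limiting step after mevalonate, read 49.2, 46.5 and 49.1 FPKM in DMSO and 39.5, 35.1 and 35.5 FPKM under palbociclib (log2 change -0.39 ± 0.05, adjusted p = 0.000408, limma). LSS, which cyclizes the epoxide to lanosterol, read 22.1, 23.5 and 27.7 FPKM against 18.1, 18.7 and 20.7 FPKM (log2 change -0.33 ± 0.08, adjusted p = 0.0122, limma). The LSS groups came close, with the highest palbociclib library at 20.7 and the lowest DMSO library at 22.1 FPKM. FDFT1, the squalene synthase that commits farnesyl diphosphate to sterols, stood between 2 genes that fell, FDPS and SQLE. It did not pass the test, at 159 ± 1.67 FPKM in DMSO and 155 ± 6.18 FPKM under palbociclib, with a 95% interval of the log2 change from -0.11 to 0.05.

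From lanosterol to cholesterol the 8 genes did not share a direction, with 3 lower, 1 higher and 4 not called. EBP, the isomerase that shifts the ring double bond, was the member with the second deepest fall. It read 91.8, 91.7 and 91.6 FPKM in DMSO and 47.1, 46.5 and 43.4 FPKM under palbociclib, a log2 change of -0.99 ± 0.04 (adjusted p = 1.64e-07, limma). EBP is on chromosome X (48521808 to 48528716) and overlaps no other annotated gene. HSD17B7, a ketoreductase, read 10.5, 11.8 and 10.5 FPKM against 6.83, 6.63 and 6.19 FPKM (log2 change -0.66 ± 0.06, adjusted p = 6.35e-05, limma). HSD17B7 has 2 named pseudogenes. CYP51A1, the demethylase that acts first on lanosterol, read 34.7, 32.9 and 37.3 FPKM against 29.3, 29.4 and 28.1 FPKM (log2 change -0.26 ± 0.05, adjusted p = 0.00296, limma; -0.17 with median centring).

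TM7SF2 was the sterol enzyme that rose. It reduces the product of CYP51A1, and it read 107, 105 and 99.3 FPKM in DMSO and 171, 162 and 155 FPKM under palbociclib. Each palbociclib library was above all DMSO libraries, with a log2 change of 0.64 ± 0.04 (adjusted p = 9.50e-06, limma). The lamin B receptor gene LBR encodes a second enzyme for the same reduction; it is no member and was looked up after the TM7SF2 values were seen. LBR read 45.4, 46.2 and 46.9 FPKM in DMSO and 22.1, 20.2 and 21.97 FPKM under palbociclib (log2 change -1.07 ± 0.04, adjusted p = 2.47e-07, limma). At this step RNA of one enzyme thus rose by 56.7% and RNA of the other fell by 53.5%.

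MSMO1, NSDHL, SC5D and DHCR7, which act on the methyl groups and the last double bonds, did not pass the test. Their levels were 32.5 ± 1.23, 14.6 ± 0.40, 80.4 ± 2.26 and 55.4 ± 3.87 FPKM in DMSO, and 30.1 ± 2.39, 13.8 ± 0.91, 84.7 ± 1.72 and 51.1 ± 3.34 FPKM under palbociclib. The log2 changes were -0.11, -0.08, 0.07 and -0.11. MSMO1 passed without palbociclib replicate 1 (log2 change -0.17, adjusted p = 0.0217, limma) and DHCR7 without DMSO replicate 2 (log2 change -0.17, adjusted p = 0.0485, limma). SC5D, whose groups did not overlap, passed as higher with quantile normalization (adjusted p = 0.017, limma) and with median centring (adjusted p = 0.0042, limma).

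**Figure D2:**
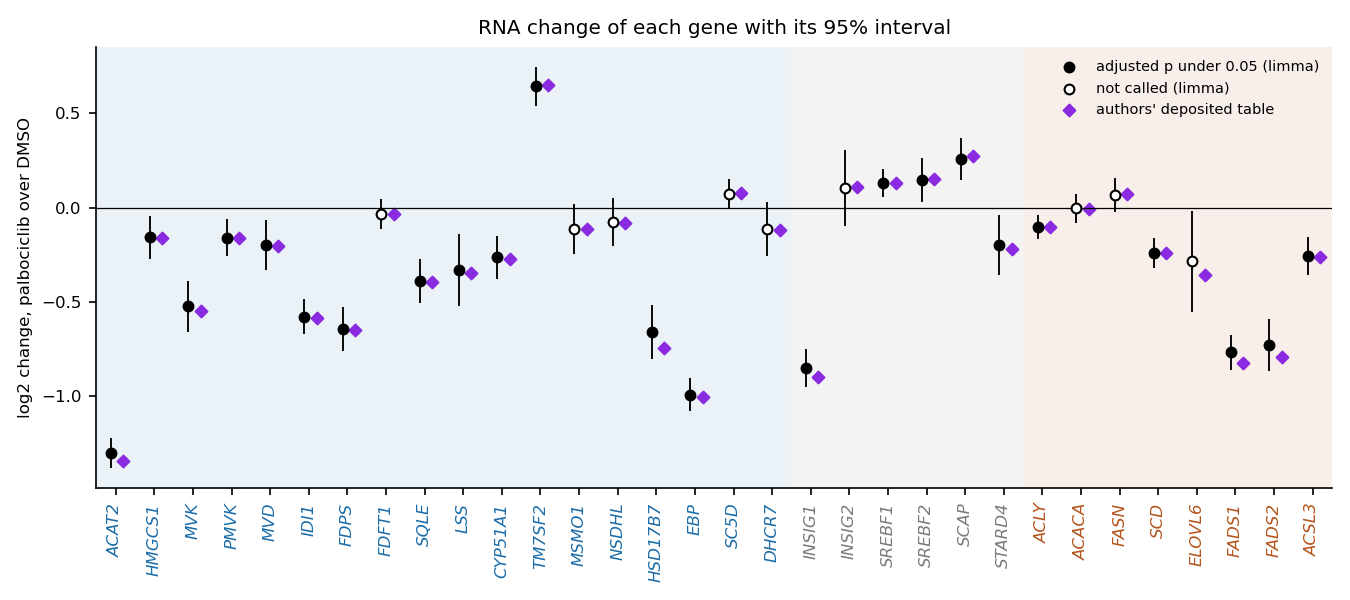
Log2 change of each gene, palbociclib over DMSO, from limma (circles, bars are 95% intervals over 3 against 3 libraries; filled where the adjusted p is under 0.05) and from the authors' deposited table (diamonds). The 7 genes of the mevalonate arm, ACAT2 to FDPS, all lie under 0, and SREBF1, SREBF2, SCAP and TM7SF2 lie above it.

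The regulators moved in both directions. INSIG1, the retention protein that is itself an SREBP target, read 25.0, 24.2 and 24.2 FPKM in DMSO and 13.7, 13.2 and 12.6 FPKM under palbociclib. Its log2 change was -0.85 ± 0.04 (adjusted p = 1.49e-06, limma), the third deepest of the 32. INSIG2, its paralog, read 14.9, 12.1 and 15.7 FPKM against 14.5, 16.2 and 15.3 FPKM, overlapping groups that did not pass the test (log2 change 0.11, 95% interval -0.10 to 0.31). The ratio of INSIG1 to INSIG2 was 1.68, 2.00 and 1.54 in the DMSO libraries and 0.943, 0.815 and 0.823 in the palbociclib libraries. INSIG1 was thus the more abundant of the pair in every DMSO library and the less abundant in every palbociclib library. The log2 ratio differed by -1.01, with an exact two-sided permutation p of 0.1, the smallest that 3 against 3 allows.

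SCAP, the escort protein, read 15.1, 16.3 and 15.8 FPKM in DMSO and 19.7, 19.3 and 18.2 FPKM under palbociclib (log2 change 0.26 ± 0.05, adjusted p = 0.00281, limma). SREBF1, which encodes the SREBP more tied to fatty acid genes, read 59.0, 62.5 and 61.1 FPKM against 66.4, 67.5 and 66.2 FPKM (log2 change 0.13 ± 0.03, adjusted p = 0.0120, limma; 0.23 with median centring). SREBF2, which encodes the SREBP more tied to sterol genes, read 28.6, 30.8 and 30.1 FPKM against 35.0, 31.2 and 33.3 FPKM. The 3 rises were of 9.60% to 20.9%, and no palbociclib library fell below a DMSO library. SREBF2 had a log2 change of 0.15 ± 0.05 and an adjusted p of 0.0449 (limma) close to the threshold. It did not pass without DMSO replicate 1, 2 or 3 (adjusted p = 0.139, 0.0548 and 0.0791, limma) or without palbociclib replicate 1 or 3 (adjusted p = 0.142 and 0.0915, limma). With quantile normalization and median centring its log2 change was 0.22 and 0.24 (adjusted p = 0.00785 and 0.00433, limma).

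The ratio of SREBF1 to SREBF2 was 2.07, 2.03 and 2.03 in DMSO and 1.90, 2.16 and 1.99 under palbociclib, and the groups overlapped (log2 difference -0.02, exact two-sided permutation p = 0.7). STARD4, which carries cholesterol between membranes, read 11.3, 11.4 and 13.4 FPKM in DMSO and 10.3, 10.0 and 10.8 FPKM under palbociclib. Its log2 change of -0.20 ± 0.07 had an adjusted p of 0.0481 (limma), and it passed in only 1 of the 6 fits that each left out 1 library. Without DMSO replicates 2 and 3 the adjusted p was 0.0536 and 0.112, and without palbociclib replicates 1, 2 and 3 it was 0.111, 0.132 and 0.0578 (limma). STARD4 also did not pass with median centring (log2 change -0.10, adjusted p = 0.26, limma) or quantile normalization (log2 change -0.09, adjusted p = 0.327, limma). Without the intensity trend or the filter on low values its adjusted p was 0.0653 and 0.0644 (limma).

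In the fatty acid branch the genes that make palmitate and those that modify it differed. ACLY, which makes cytosolic acetyl-CoA from citrate, read 114.5, 114.7 and 115.4 FPKM in DMSO and 108, 107 and 105 FPKM under palbociclib. The fall was small, a log2 change of -0.10 ± 0.03 (adjusted p = 0.0159, limma), and it did not pass with median centring (log2 change -0.01) or without the intensity trend (adjusted p = 0.0681, limma). ACACA, the carboxylase that makes malonyl-CoA, stood at 42.5 ± 1.24 FPKM in DMSO and 42.4 ± 0.40 FPKM under palbociclib, with a 95% interval of the log2 change from -0.08 to 0.08. FASN, the synthase of palmitate, stood at 184 ± 1.81 and 194 ± 10.0 FPKM (log2 change 0.07, 95% interval -0.02 to 0.16) and was called higher with median centring (adjusted p = 0.0112, limma).

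Of the 5 genes for desaturation, elongation and activation, 4 fell. FADS1 and FADS2 encode the desaturases of polyunsaturated fatty acid synthesis. FADS1 read 17.4, 17.7 and 17.8 FPKM in DMSO and 10.1, 9.89 and 9.90 FPKM under palbociclib (log2 change -0.77 ± 0.04, adjusted p = 1.59e-06, limma). FADS2 read 13.7, 15.04 and 15.03 FPKM against 8.27, 7.98 and 9.04 FPKM (log2 change -0.73 ± 0.06, adjusted p = 2.91e-05, limma). In both genes every palbociclib library was well under every DMSO library. They lie next to each other on chromosome 11 on opposite strands and overlap by 801 bases, so reads there may not be told apart.

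SCD, the desaturase that makes oleate, was the most abundant of the 32 genes. It read 294, 293 and 311 FPKM in DMSO and 260, 246 and 255 FPKM under palbociclib (log2 change -0.24 ± 0.03, adjusted p = 0.000755, limma; -0.14 with median centring). ACSL3, which activates long-chain fatty acids and sits on lipid droplets, read 44.1, 44.0 and 47.6 FPKM against 36.4, 37.9 and 39.1 FPKM (log2 change -0.25 ± 0.04, adjusted p = 0.00193, limma; -0.16 with median centring). ELOVL6, the elongase of palmitate and the least abundant of the 32, had the widest relative spread in DMSO. It stood at 5.68 ± 1.15 FPKM in DMSO and 4.43 ± 0.28 FPKM under palbociclib (log2 change -0.28 ± 0.12, adjusted p = 0.0808, limma). It passed without DMSO replicate 1 (log2 change -0.40, adjusted p = 0.0141, limma), and in the authors' deposited table its log2 change was -0.35 with an adjusted p of 0.0066. Without DMSO replicate 3 the log2 change was -0.16 (adjusted p = 0.206, limma), and with median centring -0.19 (adjusted p = 0.213, limma).

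**Figure D3:**
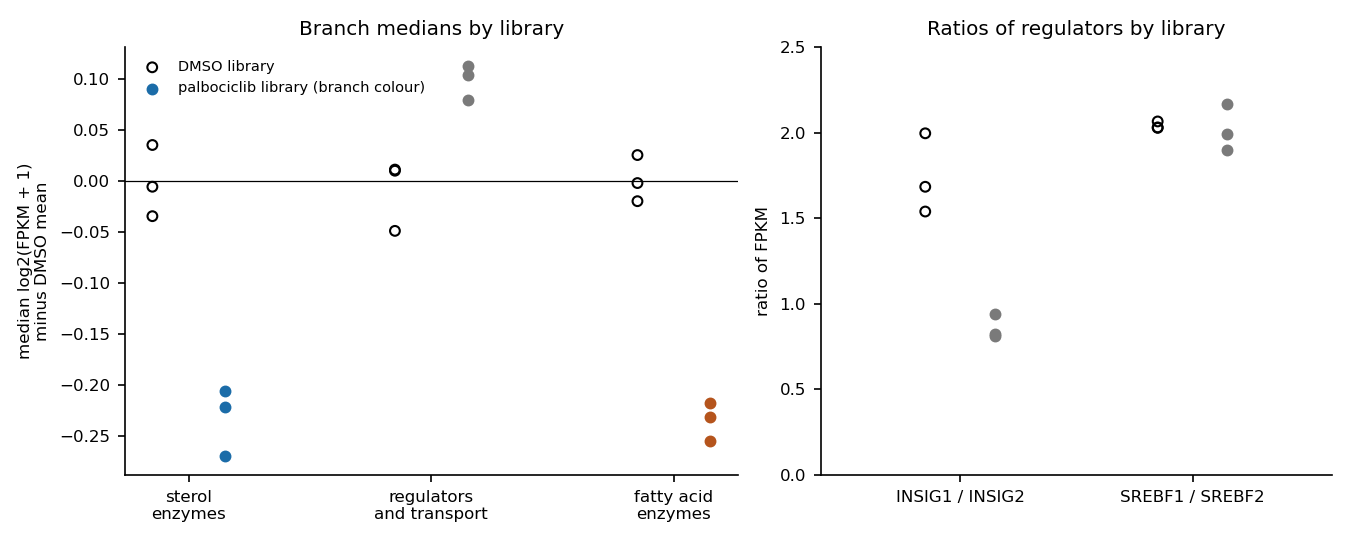
Left, the median over each branch's genes of log2(FPKM + 1) minus its DMSO mean, per library (open, DMSO; filled, palbociclib): the palbociclib libraries lie from -0.27 to -0.21 for sterol enzymes, -0.26 to -0.22 for fatty acid enzymes and 0.08 to 0.11 for regulators and transport. Right, the FPKM ratios of INSIG1 to INSIG2 and of SREBF1 to SREBF2 per library.

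Branch medians separated the treatments in each branch, as the plot of branch medians by library shows, downward for both enzyme branches and upward for the regulators. These medians describe genes chosen by name and carry no test. Summed over its 18 genes, the sterol branch held 1127 to 1157 FPKM in the DMSO libraries and 941 to 1012 FPKM in the palbociclib libraries. The 8 fatty acid genes summed to 717 to 737 FPKM and then 649.9 to 661 FPKM, and the 6 regulators and transport genes to 154 to 160.5 FPKM and 156 to 159.7 FPKM.

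In the authors' deposited table, made with DESeq2, 20 members were lower and 4 higher at an adjusted p under 0.05. Of the 19080 genes with an adjusted p in that table, 3877 were lower and 3415 higher. All 23 genes called here were among those 24 with the same direction, and ELOVL6 was the additional gene.

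Accessibility at the members' own promoters moved little. A peak within 1 kb of a start was found for 14 of the 32 genes, and 2 of these 14 peaks were called lower and 0 higher (edgeR quasi-likelihood, adjusted p under 0.05). Over the 6411 promoter peaks of all genes, 11.1% were lower and 1.86% higher. The median log2 change was -0.06 over the members' 14 peaks and -0.04 over all promoter peaks. At an unadjusted p under 0.05, 0 of the 14 were higher (edgeR), and DESeq2 likewise called 2 lower and 0 higher. SREBF2 and TM7SF2 were among the genes with no promoter peak.

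The called promoters belonged to the 2 sterol enzymes with the deepest falls in RNA. The EBP promoter peak (chrX, 48521366 to 48522299) read 123, 104 and 117 CPM, counts scaled to the normalized library size, in DMSO and 90.1, 94.9 and 96.4 under palbociclib. Its log2 change was -0.29 ± 0.05 (adjusted p = 0.000121, edgeR), and the groups did not overlap. The ACAT2 promoter peak (chr6, 159761812 to 159762564) read 85.3, 80.0 and 80.2 CPM against 70.8, 71.8 and 64.1 (log2 change -0.25 ± 0.06, adjusted p = 0.00233, edgeR). That peak also covers the starts of other annotated genes, so it cannot be assigned to ACAT2 alone. Both changes were smaller than the falls in RNA.

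No other promoter peak was called, also where RNA changed. The SCAP promoter peak read 66.8, 74.4 and 73.6 CPM in DMSO and 65.1, 61.7 and 66.2 under palbociclib, lower in each palbociclib library while SCAP RNA was higher. That peak also covers the start of the annotated gene LOC105377073, so it cannot be assigned to SCAP alone. It did not pass (log2 change -0.16, adjusted p = 0.0745, edgeR) except without DMSO replicate 1 (log2 change -0.20, adjusted p = 0.0409, edgeR). The INSIG1 peak, centred 1163 bases after the start, stood at 46.6 ± 1.36 and 44.7 ± 1.85 CPM, and the HSD17B7 peak at 23.9 ± 1.18 and 24.7 ± 2.17, although RNA of both genes fell. FDPS and SREBF1 stood at 192 ± 5.45 and 181 ± 7.56, and at 82.7 ± 6.36 and 80.3 ± 6.37 CPM, with overlapping groups. Over the 14 genes, Pearson's r between the log2 changes of RNA and promoter was 0.45, and without ACAT2 and EBP it was -0.23 over 12 genes. This is a description across genes, which share the same libraries and are not replicates.

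**Figure D4:**
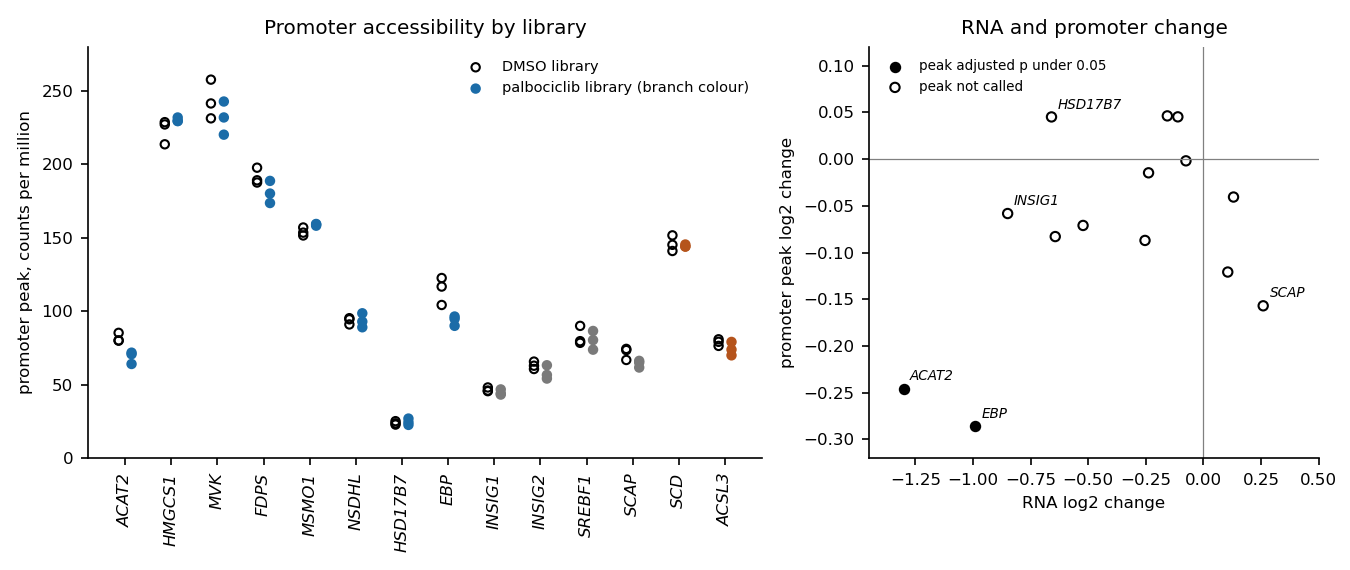
Left, CPM in the 14 promoter peaks, per library (open, DMSO; filled, palbociclib); the ACAT2 and EBP groups separate. Right, RNA log2 change against promoter peak log2 change for the same 14 genes, with filled points where the peak's adjusted p is under 0.05; SCAP lies at higher RNA and a lower peak.

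Away from the members' own starts, 47 peaks lay inside 18 of the genes or within 10 kb of them. They include a peak near TM7SF2 that lies at the starts of other genes. Of the 47 peaks, 5 were higher and 3 lower (edgeR), against 5.41% and 6.46% of all 38121 peaks. A peak upstream of FASN (chr17, 82105865 to 82106761) read 228.5, 239.8 and 250.3 CPM in DMSO and 203, 209 and 187 under palbociclib (log2 change -0.26 ± 0.05, adjusted p = 2.22e-05, edgeR). FASN RNA did not pass in the RNA libraries, which are separate samples of the same line. A peak beyond the end of FADS2 (chr11, 61870889 to 61871585) stood at 12.4 ± 1.76 and 8.56 ± 1.1 CPM (log2 change -0.54, adjusted p = 0.0043, edgeR; 0.0765 without DMSO replicate 2).

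The remaining named peaks were less stable, and with DESeq2 none of them passed. The adjusted p was then 0.0518 for INSIG2, 0.0841 for SCD, 0.146 for PMVK and 0.136 for SREBF2 (DESeq2 Wald test). A peak near INSIG2 (chr2, 118078653 to 118079277) rose from 6.55 ± 0.82 to 9.32 ± 0.47 CPM (log2 change 0.52, adjusted p = 0.0166, edgeR), which became 0.0743 and 0.0933 without DMSO replicates 2 and 3 and 0.0688 without palbociclib replicate 1. A peak before SCD (chr10, 100345647 to 100345902) rose from 22.1 ± 0.24 to 26.7 ± 1.159 (log2 change 0.27, adjusted p = 0.0305, edgeR). With 1 library left out it passed only without palbociclib replicate 3 (edgeR). The adjusted p was 0.0731, 0.0714 and 0.0961 without DMSO replicates 1, 2 and 3, and 0.0837 and 0.112 without palbociclib replicates 1 and 2 (edgeR). A peak inside PMVK (chr1, 154932220 to 154932438) rose from 23.8 ± 3.15 to 28.9 ± 3.05 (log2 change 0.27, adjusted p = 0.0438, edgeR), with 0.288 and 0.091 without DMSO replicates 1 and 3 and 0.270 without palbociclib replicate 2. A peak beyond SREBF2 (chr22, 41914642 to 41915412) fell from 21.9 ± 3.69 to 17.8 ± 1.09 (log2 change -0.31, adjusted p = 0.0376, edgeR), with 0.255 and 0.194 without DMSO replicates 2 and 3 and 0.152 and 0.0815 without palbociclib replicates 1 and 2. Over all such peaks the count of 8 became 2 when DMSO replicate 3 was left out, and 4 when DMSO replicate 1 or palbociclib replicate 1 or 2 was. Calls over all 38121 peaks became fewer as well, from 2061 higher and 2464 lower to 1103 and 1557 without DMSO replicate 3.

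Splicing of these genes was read from 340 listed events. Of these, 18 averaged under 20 reads, and 241 had enough reads but a rarer form under 5% of them. The other 81 events, in 24 genes, were tested, and 0 passed an adjusted p under 0.05 (edgeR), against 0.35% of 37445 events tested. Without adjustment 4 of the 81 had p under 0.05 (4.94%), against 8.53% of all events. The authors' deposited table calls 5 of the 340 at an FDR under 0.05, all skipped exons, of which 1 was among the 81. The share of all listed events under that FDR was not counted, so these 5 are described without a background. It is an MVD exon (chr16, 88662712 to 88662907), which rested on 9 to 30 reads per library, and its inclusion was 62.5% ± 23.2 in DMSO and 86.6% ± 13.6 under palbociclib, with overlapping groups. The other 4 events were not tested here. Of them, 3 concern the same ACACA exon (chr17, 37345253 to 37345382), each with another flanking exon upstream, and 2 of these 3 averaged 5.17 and 12.3 reads. In the third, with 94 to 156 reads per library, inclusion was 2.80%, 4.09% and 0.921% in DMSO and 0%, 0% and 0.368% under palbociclib. All palbociclib libraries lay under the DMSO libraries, and the rarer form held 3.39% of reads. The remaining event is an SREBF2 exon (chr22, 41900020 to 41900122) with 22 to 66 reads per library, included at 100%, 88.4% and 68.8% in DMSO and at 100% in each palbociclib library.

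Of the events tested, the 3 with the smallest p were in ACLY and TM7SF2. A cassette exon of 30 bases in ACLY (chr17, 41896620 to 41896649) was included in 93.5%, 94.2% and 94.5% of transcripts in DMSO and in 92.2%, 91.9% and 90.2% under palbociclib (adjusted p = 0.219, edgeR). An intron of TM7SF2 (chr11, 65112866 to 65113219) was retained in 10.5%, 11.6% and 12.4% against 8.42%, 9.83% and 9.02% (adjusted p = 0.386, edgeR). The third was an exon of TM7SF2 listed as excluding its neighbour (chr11, 65114913 to 65115081). Its inclusion value was 55.8% ± 0.68 in DMSO and 53.4% ± 1.54 under palbociclib (adjusted p = 0.731, edgeR). That value weighs reads of this exon against reads of the neighbour, so it is not the share of transcripts that hold the exon. All 3 differences were under 3 percentage points, in groups that did not overlap. These events were picked for their small p, and groups did not overlap in 9 of the 81 member events tested. The same share over all events tested was not counted, so no result is drawn from these separations. For the third event the groups nearly met, at 55.3% in DMSO replicate 3 and 55.2% in palbociclib replicate 3.

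Genes around the pathway were read from lists fixed by name, also with earlier results of these data known. Their counts stand against 20.9% higher and 22.9% lower over all genes tested. Among 10 genes of SREBP processing and INSIG turnover, 2 rose (20%) and 4 fell (40%) (limma). ERLIN1, an endoplasmic reticulum protein that takes part in sterol-linked protein degradation, fell from 27.7 ± 0.35 to 19.3 ± 0.84 FPKM (log2 change -0.50), and PGRMC1 and PAQR3 fell by 0.36 and 0.31 on the log2 scale. The proteases that cut SREBPs, MBTPS1 and MBTPS2, did not pass (log2 changes -0.03 and -0.08).

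Of 14 tested genes for sterol sensing, efflux and storage, 4 rose (28.6%) and 3 fell (21.4%). TMEM97, a sterol-regulated membrane protein, fell from 63.3 ± 4.08 to 20.2 ± 0.44 FPKM (log2 change -1.60), deeper than any member. SOAT1, which esterifies cholesterol for storage, fell by 0.48 and NPC2, a lysosomal cholesterol carrier, by 0.23 on the log2 scale (-0.14 with median centring). The exporter ABCG1 rose from 5.14 ± 0.25 to 6.25 ± 0.52 FPKM (log2 change 0.24, adjusted p = 0.0229, limma), which became 0.0773 without DMSO replicate 2 and 0.075 without palbociclib replicate 1. Of 13 genes that use isoprenoids, 1 rose (7.69%) and 5 fell (38.5%). COQ2 and PDSS1, which build ubiquinone, fell from 13.3 ± 0.56 to 5.34 ± 0.19 FPKM and from 9.29 ± 0.54 to 5.75 ± 0.46 FPKM, and ICMT, which methylates prenylated proteins, from 47.6 ± 0.73 to 32.5 ± 1.17 FPKM. FNTB, a farnesyltransferase subunit, fell by 0.25 on the log2 scale, which was -0.15 with median centring (adjusted p = 0.0764, limma) and with quantile normalization (adjusted p = 0.0862, limma).

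In other fatty acid synthesis and elongation 4 of 20 genes rose (20%) and 8 fell (40%). TECR and HACD2, enzymes of the elongation cycle, fell by 0.56 and 0.37 on the log2 scale, the elongase ELOVL7 by 0.32 and the carboxylase ACACB, from a low 1.47 ± 0.31 FPKM, by 0.51 (-0.93 with a pseudocount of 0.1). Of 11 glycerolipid genes 4 rose (36.4%) and 3 fell (27.3%); AGPAT5 fell by 0.69, the lipid droplet protein PLIN2 by 0.52 and DGAT2 by 0.36 on the log2 scale (-0.58 with a pseudocount of 0.1), while DGAT1, which also makes triglyceride, rose by 0.44. Fatty acid oxidation had 8 rises (42.1%) and 2 falls (10.5%) in 19 genes. The carnitine carrier SLC25A20 rose from 22.3 ± 0.91 to 34.0 ± 0.49 FPKM (log2 change 0.59), ETFA and ACADVL rose by 0.32 and 0.29 on the log2 scale, and HADH fell by 0.56. Over the 6 lists 23 genes rose and 25 fell, which became 33 and 21 with quantile normalization and 36 and 18 with median centring.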

How the data were processed

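The members and lists were chosen with earlier results of these data known. RNA values are FPKM made by the authors with 1 column per library, per the labels. The authors' deposited table gives a mean normalized count as a signal value, log2 changes and p-values, per the file headers. Splicing tables with inclusion and skipping reads, inclusion levels and a difference score were made by the authors with rMATS, per the file headers. The ATAC table holds counts for 1 peak set shared by all libraries, which the authors obtained from deduplicated alignments with featureCounts, per the file headers; no option to count pairs is named, so they are reads. The submitters' processing notes name GRCh38, Salmon 1.10.2, STAR 2.7.10b and DESeq2 1.44.0 for RNA, and Bowtie2, Picard and MACS3 for ATAC. Counting strand is not given in the sources used here.

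RNA was compared with limma 3.58.1 (intensity trend) on log2(FPKM + 1) over genes whose FPKM averaged at least 0.5, peaks with edgeR 4.0.16 after TMM, and splicing with edgeR on inclusion and skipping reads with a term per library, for events that averaged at least 20 reads and whose rarer form held at least 5% of them. Adjustment was by Benjamini-Hochberg over all features tested (within type for splicing). Starts and promoter sequences came from RefSeq on GRCh38.p14. No pairing term was used. RNA replicates are called biological with no further detail, so their p-values measure the spread between these libraries. Values per library are printed for called members and the INSIG, SREBF and SCAP genes; in other lists the 4 called genes with the largest change, and of peaks and events the 3 with the smallest p, are named. Of the genes so chosen in other lists, 1 is not reported here. The methods were tested on simulated data.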

Additional observations from a re-analysis of the deposited data

How the results depend on the processing

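Across 14 alternatives for RNA, 17 of the 23 called members kept their call and direction, 6 lost it in at least 1 (HMGCS1, PMVK, MVD, SREBF2, STARD4 and ACLY), 5 uncalled members gained one, and none reversed. Members called lower numbered 14 (median centring) to 21 (replicate block), and those called higher 3 to 6. Other lipid genes called higher rose from 23 to 36 with median centring. Called peaks inside or near members numbered 8, and 2 with DESeq2. They numbered 10 with library totals (8 of them higher, against 5) and 2 to 9 when 1 library was left out. Over all 38121 peaks 2061 were higher and 2464 lower, which became 981 and 1533 with DESeq2 and 2573 and 2030 with library totals. The authors' deposited splicing FDR called 1 of the 81 member events tested against 0, and 5 of all 340, with no share over all events counted. The labels share replicate numbers but do not say that these pair the libraries. Same-numbered deviations correlated at 0.11, -0.01 and 0.09 in RNA and 0.01, 0.04 and -0.03 in ATAC. Not every library correlated best with its own number, and correlations this weak cannot decide whether the numbers pair. The replicate block gave 24 changed members against 23, 2 promoter peaks against 2, 11 inside peaks against 8, and 0 splicing events. Over all peaks the block called 2133 higher and 2470 lower. With it DHCR7 and ELOVL6 passed and SREBF2 did not. The log2 ratio of INSIG1 to INSIG2 stayed between -1.09 and -0.91 when 1 library was left out. Of the 340 member splicing events, 18 were left out for too few reads and 241 for a rarer form under 5%.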
